A study of Mus musculus with 6 samples.

Results

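The genes described here code for proteins of the cartilage matrix: Acan, Hapln1, Comp, Matn1, Matn2, Matn3, Matn4, Prg4, Cilp and Cilp2. They were taken by name, and all 10 were found among the 56196 genes of the count table. Cartilage is built around aggrecan, a proteoglycan that carries long chondroitin sulphate chains and draws water into the tissue; link protein fastens it to hyaluronan. COMP and the matrilins are adaptors that tie the collagen fibrils to this network. Lubricin (Prg4) coats joint surfaces, and the CILP proteins are named for the intermediate layer of cartilage. Osteosarcoma is a bone tumour that can also lay down cartilage-like matrix, and several of these genes are made by tendon, ligament, fibroblasts and bone as well.

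RNA was sequenced from 6 mouse osteosarcomas. The 3 double knockout tumours (DKO) had the genotype Osx1-Cre;Rb1lox/lox;p53lox/lox, in which a Cre recombinase driven by Osx1, a gene of osteoblast precursors, acts on loxP-flanked Rb1 and p53 alleles. The 3 triple knockout tumours (TKO) carried the same 3 elements and SKP2-/-, the loss of a substrate receptor of an SCF ubiquitin ligase. In each group replicate 1 was from a male and replicates 2 and 3 from females; no source used here gives ages. Whether each tumour came from a separate mouse is not stated in the labels. The difference in sex places replicate 1 of each group in another mouse than replicates 2 and 3. The p-values therefore reflect the spread among these 6 samples. Whether replicates 2 and 3 of a group share a mouse is not known, and their counts differed by more than sampling noise.

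Gene counts per library ranged from 17063231 to 22488819. Skp2 matched the labels, with 20, 64 and 46 counts across DKO1 to DKO3 and 0 in each TKO library. TKO1 stood apart: the correlation across genes of its log2 counts-per-million (CPM) was 0.83 with TKO2 and 0.81 with TKO3, against 0.91 between those 2 libraries and at least 0.93 between DKO libraries. The fit across all genes called 1131 of 15361 tested, 751 higher and 380 lower in TKO. It called 39 without DKO1, 2 without DKO2 and 0 without DKO3, where 3017 genes had an unadjusted p under 0.05 in edgeR and the smallest adjusted p was 0.0545. Without TKO1 it called 2385, without TKO2 475 and without TKO3 331, and the calls of single members and related genes below are given with that dependence. Values listed across DKO1 to DKO3 or TKO1 to TKO3 are in replicate order.

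Transcripts of 6 of the 10 genes were highest in TKO2 and TKO3: Acan, Hapln1, Comp, Matn3, Matn4 and Cilp. In TKO1 and the DKO tumours these 6 genes had at most 3.58 CPM. Comp and Cilp rose in TKO and Matn2 fell, while Matn4, Hapln1, Prg4 and Cilp2 did not pass the test. Acan, Matn1 and Matn3 did not pass the filter on low counts, which asks for about 10 counts in 3 libraries, and were not tested. The 3 calls among 7 members tested stand beside 7.36% of all genes tested that were called in either direction, 4.89% higher and 2.47% lower. The groups did not overlap for the same 3 members, as for 32.8% of all genes tested (17.1% higher and 15.7% lower in TKO). The filter keeps a gene through the group in which it is high, so that count does not describe all 10 members.

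**Figure D1:**
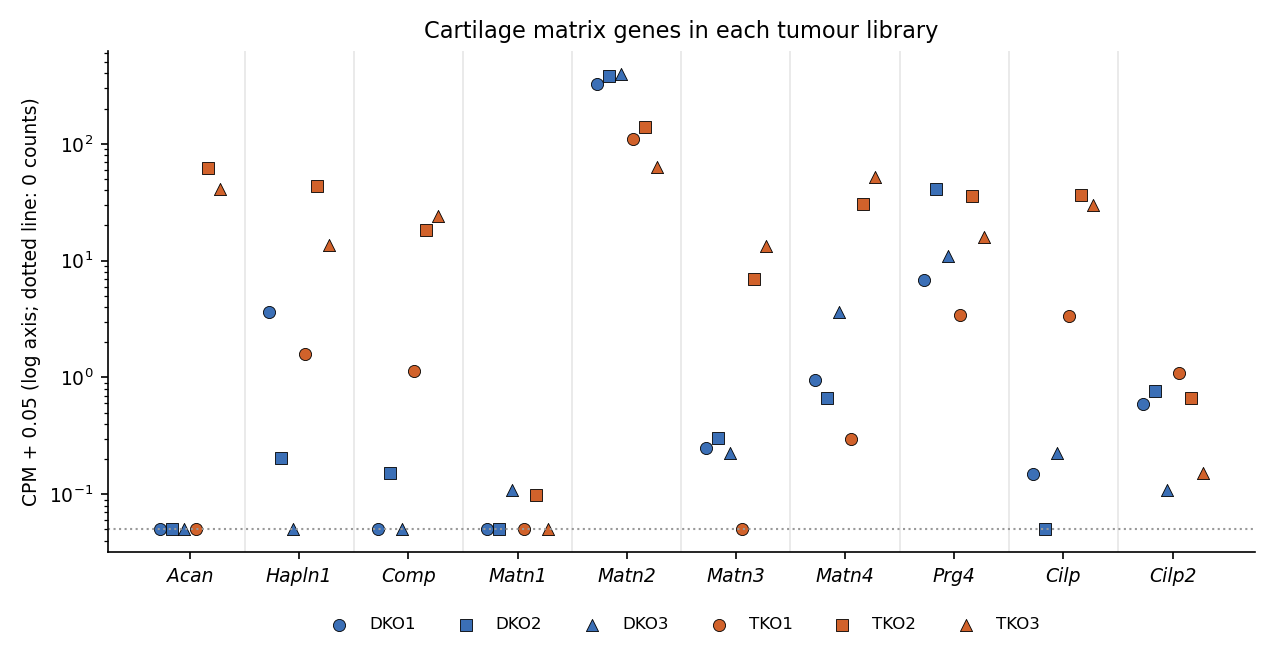
Expression of the 10 cartilage matrix genes in each library, as CPM with 0.05 added on a log axis; blue marks DKO and orange TKO, and circle, square and triangle mark replicates 1, 2 and 3. The orange squares and triangles (TKO2 and TKO3) lie highest for Acan, Hapln1, Comp, Matn3, Matn4 and Cilp, and the orange circle (TKO1) lies on the 0 line for Acan and Matn3.

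Promoter sequence is shown for 4 of the members that were highest in TKO2 and TKO3, to let the bases before their starts be compared. The windows are the 250 bases before the RefSeq start on GRCm38.p6, which exist here for 7 of the 10 members, and all 4 lie on the plus strand. Capitals mark matches, on either strand, to a GC box (GGGCGG), a RUNX core (TGTGGT), a SOX core (ACAAAG), a SOX variant (AACAAT), an AP-1 site (TGANTCA) or a TATA box (TATAAA). The Acan window is chr7:79052976-79053225, Matn3 chr12:8947679-8947928, Cilp chr9:65264930-65265179 and Hapln1 chr13:89540386-89540635. The RefSeq starts of Acan and Hapln1 differ from the gene positions given below. The Hapln1 window lies inside that gene span, and the Acan window ends short of its start. The Matn3 and Cilp windows end next to the starts given below.
Acan: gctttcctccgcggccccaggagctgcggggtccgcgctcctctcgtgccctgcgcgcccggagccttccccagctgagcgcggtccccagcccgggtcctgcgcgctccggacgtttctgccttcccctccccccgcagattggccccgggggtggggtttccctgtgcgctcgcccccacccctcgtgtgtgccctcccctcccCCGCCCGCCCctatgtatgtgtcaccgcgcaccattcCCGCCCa
Matn3: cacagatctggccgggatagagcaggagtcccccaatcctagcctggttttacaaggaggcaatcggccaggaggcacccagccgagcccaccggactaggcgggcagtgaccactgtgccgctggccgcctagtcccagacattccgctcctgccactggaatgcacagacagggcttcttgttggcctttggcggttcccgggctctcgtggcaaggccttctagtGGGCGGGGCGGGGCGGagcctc
Cilp: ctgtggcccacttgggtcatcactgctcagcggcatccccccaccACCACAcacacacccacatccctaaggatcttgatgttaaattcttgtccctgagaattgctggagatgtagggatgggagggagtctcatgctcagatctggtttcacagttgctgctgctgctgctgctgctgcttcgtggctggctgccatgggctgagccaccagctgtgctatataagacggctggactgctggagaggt
Hapln1: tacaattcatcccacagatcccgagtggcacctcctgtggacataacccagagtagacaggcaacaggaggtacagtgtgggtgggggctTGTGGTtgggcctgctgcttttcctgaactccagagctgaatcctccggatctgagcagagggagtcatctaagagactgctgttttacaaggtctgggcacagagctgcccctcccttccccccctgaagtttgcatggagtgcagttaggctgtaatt

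These windows differ from one another. Acan and Matn3 are rich in G and C (74.4% and 65.2%, against a median of 52.4% over 32851 mouse windows) and each holds 3 GC box matches, some overlapping; 32.7% of all windows hold at least 1. Cilp and Hapln1 have 56% and 54.4% G and C, no GC box match, and 1 RUNX core match each, a motif in 14.1% of all windows. None of the 4 holds the SOX core, the SOX variant, the AP-1 site or the letters TATAAA, found in 16.5%, 9.42%, 6.75% and 12.4% of all windows. The Cilp window does hold the run tatataag near its end, which the search for TATAAA did not count. Matn4 has 2 RefSeq starts; the outer window holds none of the 6 motifs and the inner one 1 GC box match. A match is a run of letters and does not show binding.

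Aggrecan and link protein form the core complex with hyaluronan. Acan (ENSMUSG00000030607.7, chromosome 7, 79053483 to 79115099, GRCm38) had 0 counts in DKO1, DKO2, DKO3 and TKO1, and 1282 and 801 counts, or 61.5 and 40.6 CPM, in TKO2 and TKO3. It was thus read in 2 tumours of 6, and the groups overlapped at 0. The limit that a count of 0 allows, 3 counts, equals 0.125 CPM in TKO1 and 0.149 to 0.178 CPM in the DKO libraries. The TKO mean of 34 ± 31.2 CPM (SD, n = 3) was at least 642-fold higher than the floor of 3 counts over the DKO group, a mean that rests on TKO2 and TKO3. With TKO1 left out Acan passed the filter and the test (edgeR adjusted p = 0.00348); without any filter, on all 6 libraries, it did not (0.427).

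Hapln1, which codes for link protein, did not follow Acan in every tumour. The gene (ENSMUSG00000021613.9, chromosome 13, 89539796 to 89611652) had 3.58, 0.153 and 0 CPM across DKO1 to DKO3 and 1.54, 43.5 and 13.4 CPM across TKO1 to TKO3. DKO1 held more Hapln1 than TKO1, so the groups overlapped. Its log2 fold change was 3.96 (SE 1.83, edgeR adjusted p = 0.233), short of the threshold, as it was without TKO1 (0.113). Leaving out DKO1 moved it to 7.82 (SE 2.06, adjusted p = 0.125).

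Among the adaptor proteins, Comp rose in TKO. Comp (ENSMUSG00000031849.9, chromosome 8, 70373558 to 70382066) codes for cartilage oligomeric matrix protein, a thrombospondin that is also plentiful in tendon. It had 0, 2 and 0 counts across DKO1 to DKO3 and 26, 383 and 476 counts across TKO1 to TKO3, the latter equal to 1.08, 18.4 and 24.1 CPM. Every TKO library lay above every DKO library, and TKO1 lay far below the other TKO tumours. The ratio of the groups was 387 (95% counting interval 107 to 3202, which covers counting error only), a log2 fold change of 8.47 (SE 1.65, edgeR adjusted p = 0.0333). The call did not hold with DKO1 (adjusted p = 0.115), DKO2 (0.124) or DKO3 (0.128) left out, nor with TKO2 (0.0741) or TKO3 (0.0744) left out, nor by limma-voom (0.0869) or with first-strand counts alone (0.0511). It held without TKO1 (0.00511).

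The 4 matrilins split into different patterns. Matn2 was the most abundant of the 10 genes in every library and the single member that fell. Matrilin-2 is the broadly made member of the family, found in skin, nerve, muscle and bone. Matn2 (ENSMUSG00000022324.15, chromosome 15, 34306677 to 34436273) had 326, 383 and 399 CPM across DKO1 to DKO3 and 110, 140 and 62.9 CPM across TKO1 to TKO3. The groups did not overlap, and unlike the other members Matn2 in TKO1 lay between TKO2 and TKO3. It fell by 1.82 on the log2 scale (SE 0.36, edgeR adjusted p = 0.0333), 3.54-fold lower from a DKO mean of 369 ± 38.1 CPM to 104 ± 38.9 CPM (SD, n = 3). The direction held without each library in turn (-2.08 to -1.55), but the call held without TKO1 (adjusted p = 0.0325) and not without DKO1 (0.095), DKO2 (0.117), DKO3 (0.127), TKO2 (0.0532) or TKO3 (0.0645). It was also lost when testing was limited to genes with at least 1 CPM in a library of each group (0.0655).

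Matn3 and Matn4, like Acan, were highest in TKO2 and TKO3 and had their lowest value in TKO1. Matrilin-3 is largely a cartilage protein, and mutations in its gene cause skeletal dysplasia. Matn3 (ENSMUSG00000020583.4, chromosome 12, 8947929 to 8972028) had 4, 5 and 3 counts across DKO1 to DKO3, 0 in TKO1 and 144 and 263 in TKO2 and TKO3, the last 2 equal to 6.9 and 13.3 CPM. TKO1 was the lowest of all 6 libraries, and the others of its group the highest. Matn4 (ENSMUSG00000016995.17, chromosome 2, 164389393 to 164405160), coding for matrilin-4, had 0.895, 0.612 and 3.56 CPM across DKO1 to DKO3 and 0.249, 30.4 and 51.6 CPM across TKO1 to TKO3. Here too TKO1 was below every DKO library. The fitted Matn4 difference was 4.03 on the log2 scale (SE 1.59, edgeR adjusted p = 0.176), which missed the threshold; DESeq2 on all libraries called it (0.0129), and so did edgeR without TKO1 (0.0182). Matn3, untested in the full set, had a log2 fold change of 5.54 (SE 0.65, adjusted p = 0.00642) without TKO1, and of 4.9 (SE 1.8, adjusted p = 0.229) on all libraries with no filter.

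Matn1, the matrilin most closely tied to non-articular cartilage, was not detectable at this depth. Matn1 (ENSMUSG00000040533.7, chromosome 4, 130944385 to 130955475) had 1 count in DKO3, 1 in TKO2 and 0 in the other 4 libraries. Both groups lay under the floor of 3 counts, so no fold is given.

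Prg4 codes for lubricin, made by the superficial cartilage layer and the synovial lining. Prg4 (ENSMUSG00000006014.16, chromosome 1, 150449412 to 150466165) had 6.71, 40.7 and 10.8 CPM across DKO1 to DKO3 and 3.36, 35.9 and 15.8 CPM across TKO1 to TKO3. In both groups replicate 2 was highest and replicate 1 lowest, and the groups overlapped throughout. The log2 fold change was -0.08 with an SE of 0.95 (edgeR adjusted p = 0.968), so a change of several fold either way is within its error. It was -1 without TKO2 and 1.05 without DKO2, the library with the highest value.

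Cilp rose and its relative Cilp2 stayed near the limit of detection. The CILP protein is a secreted matrix protein that binds and restrains TGF-beta and is also made in tendon, heart and skeletal muscle. Cilp (ENSMUSG00000042254.14, chromosome 9, 65265180 to 65280605) had 2, 0 and 3 counts across DKO1 to DKO3 and 80, 761 and 588 counts across TKO1 to TKO3, or 3.32, 36.5 and 29.8 CPM. All TKO libraries lay above all DKO libraries, with TKO1 again lowest of its group. Cilp rose 251-fold between group means, a log2 fold change of 7.92 (SE 1.34, edgeR adjusted p = 0.0245). The call held without TKO1 (0.00371). It missed the threshold without each DKO library (DKO1 0.0981, DKO2 0.0924, DKO3 0.0922), without TKO2 (0.059) or TKO3 (0.0593), and by limma-voom (0.0724). Cilp2 (ENSMUSG00000044006.8, chromosome 8, 69880369 to 69887687) had 11, 14 and 1 counts in the DKO and 25, 13 and 2 in the TKO libraries, at most 1.04 CPM. Its values overlapped (log2 fold change 0.41, SE 1.04, edgeR adjusted p = 0.838).

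**Figure D2:**
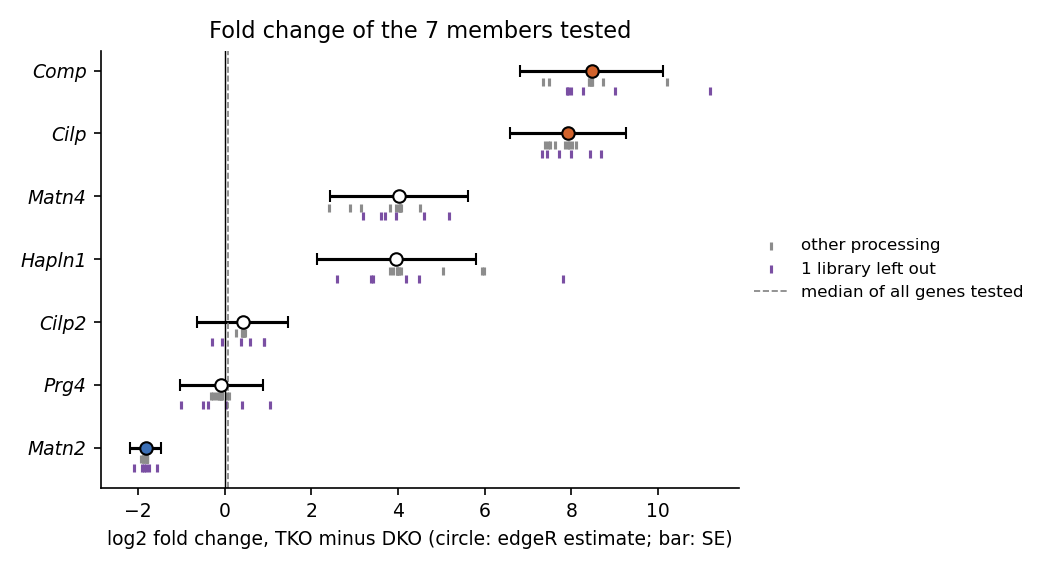
Log2 fold change between TKO and DKO for the 7 members tested; circles are edgeR estimates, filled where the adjusted p was under 0.05, bars are SE, and ticks under each are the values under other processing (grey) and with 1 library left out (purple). Comp and Cilp lie to the right at 8.47 and 7.92, Matn2 to the left at -1.82, and the ticks of Prg4 and Cilp2 fall on both sides of 0.

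Levels of different genes were compared per length, as CPM per kilobase of exon (RPKM). In DKO tumours Matn2 led with 59 ± 6.09 RPKM (SD, n = 3), followed by Prg4 with 4.54 ± 4.34, and their ranges did not overlap. The other 8 genes had mean levels of 0 to 0.326 RPKM, and neighbours in the order overlapped, apart from Matn3 (0.059 to 0.0846 RPKM), which lay above Cilp (0 to 0.0418 RPKM) in every library. That gap rests on 3 to 5 Matn3 counts and 0 to 3 Cilp counts per library, at or near the floor of 3 counts. In TKO tumours Matn2 again led with 16.7 ± 6.21 RPKM, above the range of every other member. Cilp (5.46 ± 4.12), Matn4 (5.3 ± 4.99), Comp (4.89 ± 4.04), Acan (4.55 ± 4.18), Prg4 (4.29 ± 3.83), Hapln1 (3.3 ± 3.66) and Matn3 (2.24 ± 2.21 RPKM) followed within each other's spread. Cilp2 and Matn1 came last, with mean levels of 0.136 and 0.00799 RPKM.

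The make-up of the cartilage matrix transcripts differed between tumours with similar sums, such as DKO2 and TKO2. Summed over the 10 genes, the level was 54.7, 71 and 67.1 RPKM across DKO1 to DKO3 and 20, 69.4 and 51 RPKM across TKO1 to TKO3. Matn2 made up 95.3, 86 and 95% of that sum in the DKO tumours and 87.6% in TKO1, but 32.2% in TKO2 and 19.7% in TKO3. With Matn2 set aside, the sum was 2.56, 9.94 and 3.37 RPKM in the DKO libraries, 2.48 in TKO1, 47.1 in TKO2 and 41 in TKO3. In TKO2 the next genes were Cilp, Prg4, Acan and Hapln1 at 10.6 to 12.4% each, whereas in TKO3 Matn4 reached 19.6% and Comp 15.9%. The Matn2 share of TKO1 lay within the DKO range, although 6 members reached 1 CPM in TKO1, against 2 or 3 in the DKO libraries and 8 in TKO2 and TKO3.

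**Figure D3:**
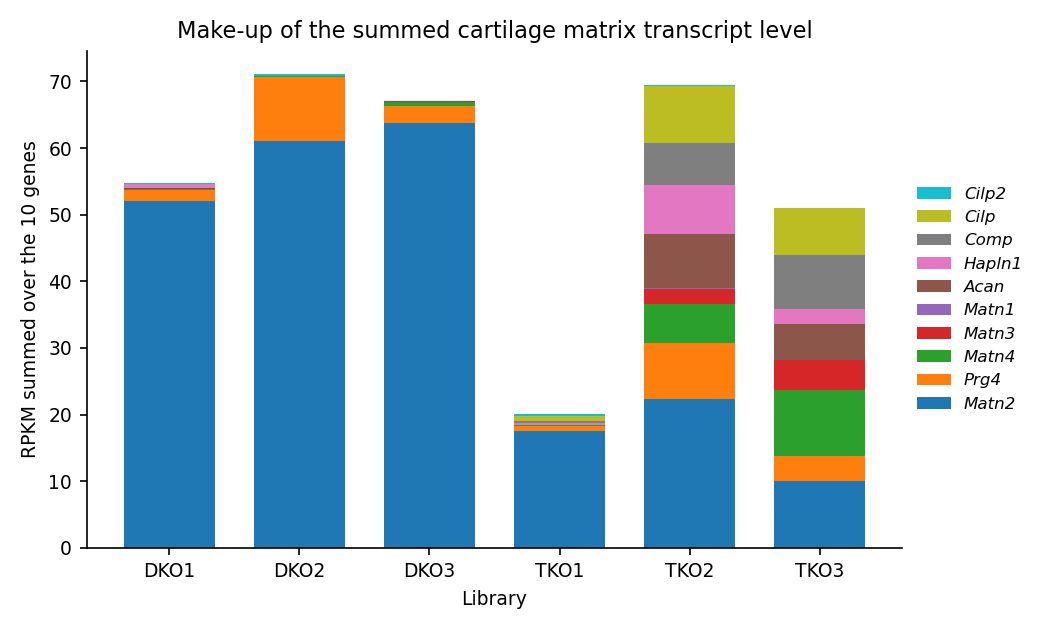
Summed level of the 10 genes in each library in RPKM, stacked by gene. Matn2 (blue, bottom) fills 86 to 95.3% of the DKO bars and 87.6% of the TKO1 bar, and 32.2% and 19.7% of the TKO2 and TKO3 bars.

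Likeness between members was measured as the Euclidean distance of their log2 CPM over the 6 libraries, each gene centred on its own mean. The pair at the smallest distance was Comp and Cilp (2.15), and the pair at the largest was Matn2 and Cilp (10.7). The genes nearest to Comp over the 6 libraries were Slc37a2 (0.721), Clec4a1 (0.868) and Trpa1 (0.943), and those nearest to Cilp were Btnl9 (0.958), Kcnj8 (1.05) and St8sia4 (1.07). Matn2 lay nearest to Fth1, the ferritin heavy chain (0.173), then Fnip2 (0.448) and Sqstm1 (0.462). Prg4 lay nearest to Esrrg (0.852), Cox6b2 (0.904) and Nr4a3 (1.04). The nearest genes were farther for Matn4 (Rap1gap at 1.43, Fxyd1 and Tm4sf19) and for Hapln1 (Ccl12 at 1.71, Slc35f2 and Mfap4). With 6 libraries in all, these distances are descriptions of the libraries.

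Relatives of the members moved in both directions. Of 10 other lecticans, link proteins and thrombospondins 8 could be tested; 1 rose and 1 fell. Their median log2 fold change was 0.63, against 0.09 over all genes tested. Thbs4, a thrombospondin close to Comp and made in tendon and muscle, had 1.64, 0.408 and 0.83 CPM across DKO1 to DKO3 and 264, 246 and 1060 CPM across TKO1 to TKO3. It rose by a log2 fold change of 9.08 (SE 1.01, edgeR adjusted p = 0.0118). Unlike Comp, Thbs4 in TKO1 was as high as in TKO2. Hapln4, a link protein of the nervous system, went the other way to Hapln1: it had 11.4, 35.7 and 33.1 CPM across DKO1 to DKO3 and 0.332, 0.144 and 1.11 CPM across TKO1 to TKO3 (log2 fold change -5.64, SE 0.92, adjusted p = 0.0231). Hapln2, another nervous system link protein, had 41 counts in TKO1 and 0 in the other libraries. Hapln3 did not pass (adjusted p = 0.172), with 0 to 0.969 CPM in DKO, 0.208 in TKO1 and 8.87 and 22.2 in TKO2 and TKO3. Versican, Vcan, the lectican of loose connective tissue, had 431 to 906 CPM in DKO and 14 to 154 CPM in TKO, apart but not past the test (0.115). The calls of Thbs4 and Hapln4 were lost without DKO1 (0.0581 and 0.0628), DKO2 (0.0583 and 0.0924) or DKO3 (0.0614 and 0.0916).

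The collagens that aggrecan and the matrilins work with were detected unevenly. None of the 4 cartilage collagen genes tested passed, of 8 listed, with a median log2 fold change of 1.86; 2 passed without TKO1. Col11a2, a chain of the thin cartilage fibril, had 2.98, 1.68 and 2.61 CPM across DKO1 to DKO3 and 12.6, 199 and 2850 CPM across TKO1 to TKO3 (log2 fold change 8.72, edgeR adjusted p = 0.0509). Col11a1 had 12.4, 125 and 0.77 CPM in the DKO libraries, 0.249 in TKO1 and 892 and 760 in TKO2 and TKO3 (adjusted p = 0.384). Col2a1, the main cartilage collagen, and Col9a1 were looked at after their values were seen. Col2a1 had 2400 counts in TKO3, 5 in TKO2, 0 in TKO1 and 5 in all DKO libraries together, and Col9a1 521 in TKO3 and 61 in TKO2. TKO2 thus held the most Acan and Hapln1 with almost no Col2a1.

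Other chondrocyte markers were sparse. Of 12 chondrocyte markers outside the members, Snorc, Ucma and Scrg1 had 0 counts in all 6 libraries, Cnmd, Epyc and Cytl1 had 0 in every DKO library and at most 5 counts in any TKO library, and 3 could be tested. None of the 3 passed. Sox9, the transcription factor that drives cartilage genes, was highest in TKO1 (108 CPM), the TKO tumour without Acan, and had 17.1 and 27.7 CPM in TKO2 and TKO3 and 5.97 to 26.6 in DKO (edgeR adjusted p = 0.239). The list summed to 10 to 30.2 CPM in DKO, 123 in TKO1, 222 in TKO2 and 3029 in TKO3, mostly Sox9 in TKO1 and mostly Col11a2 in TKO2 and TKO3; 2 of its genes passed without TKO1. In bulk tissue, fewer cells of a type and less RNA per cell cannot be told apart.

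**Figure D4:**
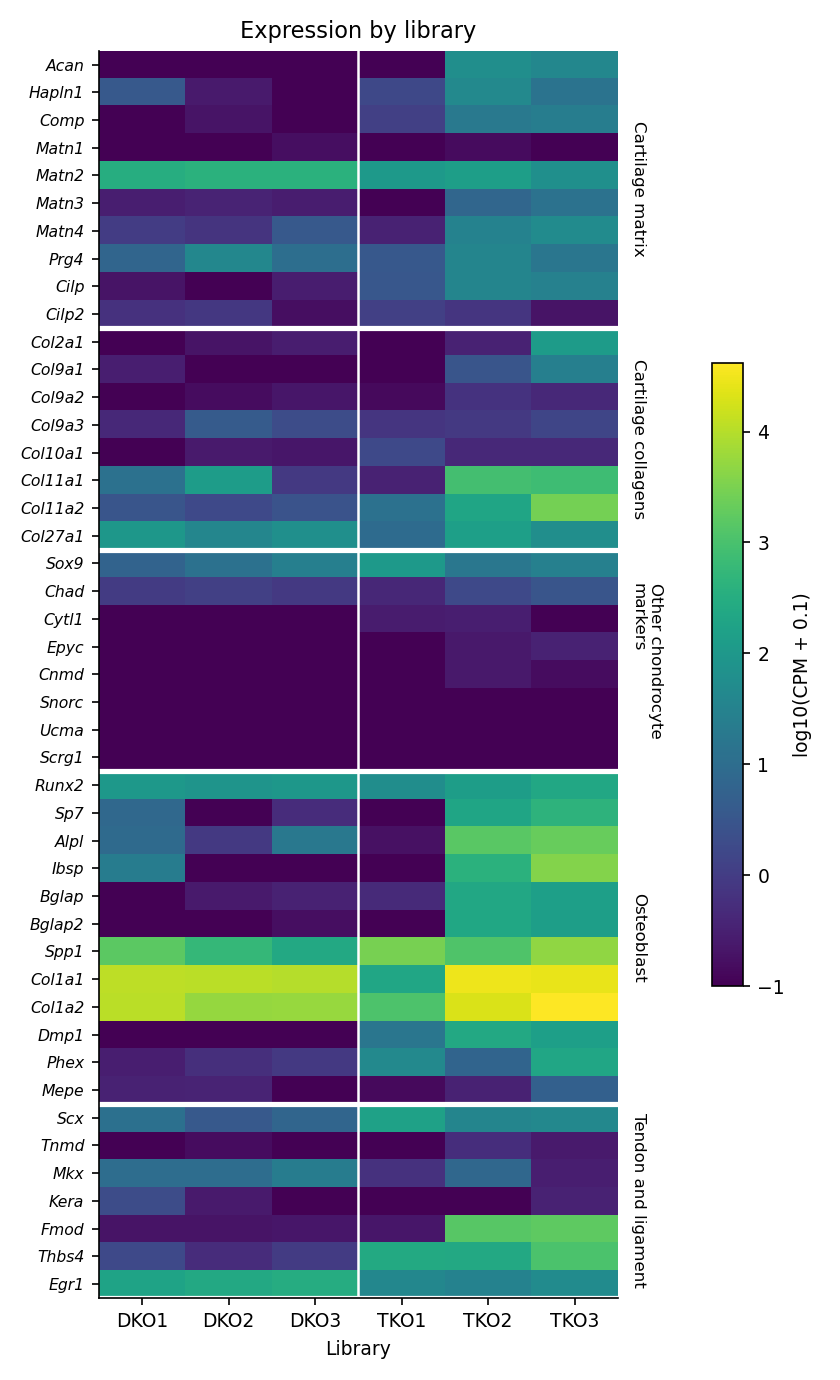
Expression of the members, cartilage collagens, other chondrocyte markers, osteoblast markers and tendon markers in each library, as log10 of CPM with 0.1 added; libraries are columns and genes rows. TKO2 and TKO3 are brighter than the other libraries for Acan, Hapln1, Comp, Matn3, Matn4 and Cilp, and for Col11a1, Sp7, Bglap and Fmod. Among the members Matn2 is brightest in every library. Snorc, Ucma and Scrg1 are dark throughout.

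Regulators of cartilage and the enzymes that build chondroitin sulphate showed few calls. Of 22 regulators 17 could be tested and 1 rose, with a median log2 fold change of 0.66. It was Runx3, a factor of chondrocyte maturation also made by leukocytes, with 4.2 ± 1.71 CPM in DKO and 54.4 ± 11.2 CPM in TKO (SD, n = 3; log2 fold change 3.7, SE 0.44, edgeR adjusted p = 0.0123); the leukocyte gene Ptprc had 3 counts in all DKO libraries together and 4204 in TKO, and its part in this call was not tested. The Runx3 call was lost without DKO1 (0.0628), DKO2 (0.0583) or DKO3 (0.0556). Sox6, a partner of Sox9, did not pass (0.0721): it had at most 0.498 CPM in DKO and TKO1, and 12.7 and 25.1 in TKO2 and TKO3. Sox5, looked at after its values were seen, went the other way without passing (0.153). It had 14.4 to 28.7 CPM in DKO and 0 to 3.4 CPM in TKO. Arid5b (0.0503) and Bmpr1b (0.066) lay lower in every TKO library without passing. Pax1 had 0 counts throughout. Without TKO1, 5 regulators passed in place of 1.

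All 23 genes of chondroitin sulphate synthesis and sulphation could be tested and none passed in edgeR, with a median log2 fold change of 0.25. The sulphate donor synthase Papss1 came closest, with 71.8 to 81.9 CPM in DKO and 114 to 198 CPM in TKO (edgeR adjusted p = 0.0672). B3galt6, of the sugar linkage, had 3.37 to 11 CPM in DKO and 16.7 to 23 in TKO (0.111), and Csgalnact1, which starts the chain, 30.1 to 105 in DKO and 4.56 to 19.6 in TKO (0.12). The sulphotransferase gene Chst13 had 0 to 0.867 CPM in DKO, 0.332 in TKO1 and 7.91 and 56.1 in TKO2 and TKO3 (0.144). DESeq2 called 4 of the 23, and edgeR called 1 without TKO1.

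Proteases that cut these matrix proteins, listed together with the inhibitor gene Timp3, were the list with the most falls. Of 12 genes, all tested, 3 fell and none rose. Their median log2 fold change was -1.46. Stromelysin, Mmp3, which cleaves aggrecan and link protein, had 4419, 1074 and 2043 CPM across DKO1 to DKO3 and 0.581, 26.5 and 4.81 CPM across TKO1 to TKO3. Its groups lay far apart, with a log2 fold change of -7.88 (SE 1.57, edgeR adjusted p = 0.0343). Adamts7, which degrades COMP, fell from 148 ± 73.5 to 27 ± 11.2 CPM (SD, n = 3; adjusted p = 0.0435), and Adamts1 from 320 ± 88.9 to 72.8 ± 41.5 CPM (0.0486). Htra1 lay lower in every TKO library (47.7 to 223 CPM against 404 to 647) and did not pass (0.0758). Mmp13, the collagenase of growth plate and bone, looked at after its values were seen, ran from 4.32 CPM in TKO1 to 17560 in TKO3. All 3 calls were lost without any 1 DKO library (0.0703 to 0.154) and without TKO3 (0.0931 for Mmp3, 0.1 for Adamts7, 0.05001 for Adamts1). With sex as a covariate Mmp3 (0.0532) and Adamts7 (0.0589) missed the threshold, and with the filter of 1 CPM in each group all 3 did (0.0696 to 0.0861). Mmp3 was lost with no filter (0.121), Adamts7 by limma-voom (0.0512) and Adamts1 with first-strand counts (0.0517). Adamts7 was also lost without TKO1 (0.0505) or TKO2 (0.0781), and Adamts1 without TKO2 (0.127).

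**Figure D5:**
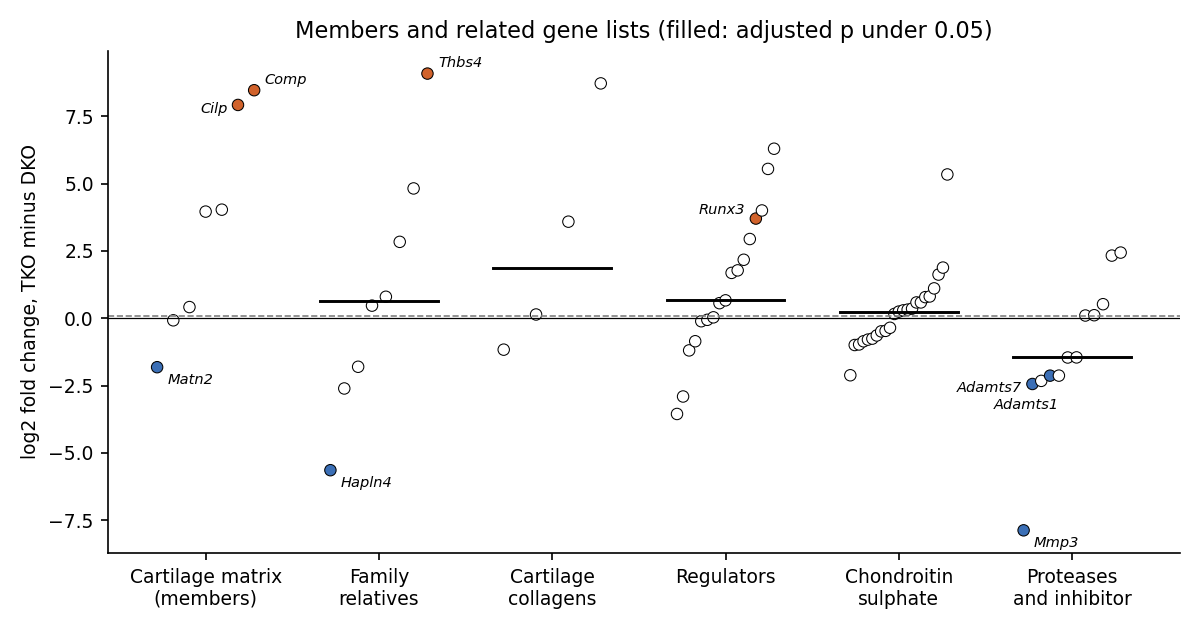
Log2 fold change between TKO and DKO for each tested gene of the members and 5 related lists; filled points had an adjusted p under 0.05, black bars are the medians of the related lists and the dashed line is the median of all genes tested. Thbs4 and Runx3 lie above 0 and Hapln4, Mmp3, Adamts7 and Adamts1 below it among the related lists.

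Markers of bone, tendon, muscle and blood vessels differed between the same libraries, and their part in the results on the members was not tested. The 12 osteoblast markers summed to 15950 to 24510 CPM in DKO, 4337 in TKO1, 54690 in TKO2 and 80740 in TKO3; of 9 tested, Dmp1 and Phex rose. Several of them, picked after their values were seen, were highest in TKO2 and TKO3. Sp7, the gene whose promoter drives the Cre, had 0 counts in TKO1 and DKO2, 0.415 and 7.96 CPM in DKO3 and DKO1, and 205 and 431 in TKO2 and TKO3; Bglap, osteocalcin, had 0 to 0.374 CPM in DKO and TKO1 and 239 and 152 in TKO2 and TKO3. Col1a1, the bone collagen, was a large part of the list sum except in TKO1. It had 9931 to 11740 CPM in DKO, 208 in TKO1 and 30050 and 26740 in TKO2 and TKO3. Sp7 and Bglap were thus at or near 0 in TKO1, DKO2 and DKO3, although all 6 tumours are labelled as osteosarcoma. No osteoblast marker passed without any 1 DKO library or without TKO3, 1 passed without TKO2 and 6 without TKO1. With no filter both calls were lost (edgeR adjusted p = 0.133 for Dmp1 and 0.121 for Phex). Phex was also lost by limma-voom (adjusted p = 0.156) and in edgeR with a replicate block (0.0691).

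Of 7 tendon markers, 4 were tested. Thbs4 and Scx rose and Egr1 fell. Mkx, the other gene tested, leaned lower without passing (log2 fold change -2.38, edgeR adjusted p = 0.294), and passed without TKO2 (0.0437). The list summed to 206 to 339 CPM in DKO, 469 in TKO1, 1776 in TKO2 and 2844 in TKO3. Tnmd and Fmod were picked after their values were seen: Tnmd had at most 9 counts in any library, and Fmod had 2 or 3 counts in DKO and TKO1 and 30335 and 33365 in TKO2 and TKO3. The Scx call was lost without each DKO library (0.104 to 0.163), without TKO2 (0.0605) or TKO3 (0.0652), by limma-voom (0.0689), with no filter (0.059), with the filter of 1 CPM in each group (0.0805) and with second-strand counts (0.0542). Egr1 was lost without each DKO library (0.0581 to 0.0696). None of the 8 fibroblast markers, all tested, passed (505 to 2770 CPM summed in TKO, 2167 to 4036 in DKO).

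All 9 muscle markers tested rose; the list summed to 4.18 to 12.3 CPM in DKO, 392 in TKO1, 10410 in TKO2 and 1799 in TKO3, and Tnnc2, overlapped by other genes over 74% of its exons, was at 0 throughout. The 8 endothelial markers all rose (9.69 to 11.4 against 164 to 828 CPM, with Emcn at 0 in DKO), as did 8 of 10 macrophage markers (20.9 to 129 against 970 to 2670, with C1qa, C1qb and C1qc at 0 in DKO) and all 4 red cell markers tested of 7 (0.497 to 1.38 against 88.4 to 1163, with Hbb-bs and Hbb-bt at 0 in DKO). Without any 1 DKO library none of the muscle, endothelial and red cell markers passed, and 6, 1 and 0 macrophage markers did without DKO1, DKO2 and DKO3. Without TKO3 the muscle, endothelial and red cell counts were 4, 4 and 1. Processing moved these counts too: 4 muscle markers passed with no filter and 3 by limma-voom. With the filter of 1 CPM in each group 2 of 4 tested muscle markers passed. A fit with a replicate block left 7 muscle, 5 endothelial, 8 macrophage and 1 red cell marker. Beside Cilp and Comp, which muscle and tendon also make, TKO1 held the least muscle signal of the TKO tumours and the least Cilp and Comp, while TKO3 held less muscle signal than TKO2, less Cilp and more Comp. The part of muscle in these results was not tested. For the adipocyte list none of 4 tested markers of 6 passed (28.1 to 166 CPM summed in DKO, 94.5 to 191 in TKO; Cidec was at 0 in DKO).

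Schwann cells are among the cells that make Matn2, which had 6565 to 7506 counts in the DKO libraries. Of 8 Schwann cell markers 5 were tested and none passed. In DKO libraries Mag had 0 counts, S100b 2 to 15, Mbp 14 to 38, Prx 80 to 203 and the widely made Pmp22 3224 to 8406; Sox10, picked after its values were seen, had at most 1. The list, mostly Pmp22, summed to 170 to 431 CPM in DKO and 84.7 to 165 in TKO, and its part in the Matn2 result was not tested.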

How the data were processed

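Polyadenylated RNA from about 100 mg of fresh tumour was, per the labels' protocols, read on an Illumina HiSeq. The deposited values are raw read counts for each gene, whole numbers in a series table and in 1 file per library; STAR 2.6.1 and mm10 are named per the submitters' processing notes, and no source used here names the annotation release. The series table equals the either-strand column of the library files (0 values differ). The first strand held 50.2 to 51.3% of stranded counts, so reads of overlapping genes cannot be told apart by strand; other genes overlapped at most 4.77% of any member's exons. Reads at several places (3.94 to 4.7%), in no gene (5.33 to 9.3%) or in more than 1 gene (5.1 to 6.53%) were outside the counts.

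IDs were matched to symbols without version (55154 of 56196), and positions and exon lengths came from GENCODE M21 (GRCm38, the assembly of mm10). Genes kept by filterByExpr were scaled by TMM and tested with edgeR's quasi-likelihood test, robust, without covariates (edgeR 4.0.16, R 4.3.3). The Benjamini-Hochberg adjustment ran over all 15361 genes, with a threshold of 0.05. All adjusted p-values come from this test unless limma-voom (limma 3.58.1) or DESeq2 1.42.0 is named. CPM uses each library's total times its TMM factor; distances used log2 CPM with a prior count of 2. The test was tried on simulated data in which no library stood apart, so that trial does not bear on calls that move when a library is left out. Reads carry no molecular identifiers, so floors and intervals reflect counting error alone. All pairs of libraries differed by more than sampling noise.

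The members and lists were chosen with earlier results of these data known. Named in each list were up to 4 genes with the smallest p and markers at 0 in a group; others are marked as picked after their values were seen. Some single markers of the cell type lists are not reported here. The nearest genes were the 3 at the smallest distance from each tested member with at least 1 CPM in 3 libraries, leaving out predicted and clone names. Alternatives were RLE factors, library totals, 2 other filters, DESeq2, limma-voom, a replicate block, sex as a covariate, either strand alone and leaving out each library.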

Additional observations from a re-analysis of the deposited data

How the results depend on the processing

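RLE factors, library totals, no filter, sex as a covariate and either strand alone left the counts of called genes, members and genes of the 5 related lists within 1.5 times the main values of 1131, 3 and 6. Some single calls still changed: sex as a covariate took the proteases from 3 calls to 1. Testing only genes with at least 1 CPM in a library of each group gave 158, 0 and 3. Only 4 members were tested in that setting, and Comp and Cilp were not among them. DESeq2 gave 2893 genes, 4 members and 22 list genes, and limma-voom 1 member. Leaving out 1 library at a time gave 0 to 2385 genes, 0 to 6 members and 0 to 14 list genes, highest without TKO1 in each case; the cause was not tested. The fit with a replicate block gave 295 genes, 1 member (Comp) and 2 list genes, with Hapln4 (0.0525), Mmp3 (0.101), Adamts7 (0.141) and Adamts1 (0.113) above 0.05. Numbers do not pair the samples: deviations of same-numbered libraries correlated at -0.007, 0.009 and -0.017. In that block fit Cilp had an adjusted p of 0.0722 and Matn2 of 0.0825. Prg4 changed sign with first-strand (0.051) and second-strand (0.11) counts and ranged from -1.004 to 1.05 with 1 library left out; Cilp2 ranged from -0.28 to 0.92. Comp, Cilp, Matn2, Matn4 and Hapln1 kept their sign in every setting in which they were tested. Depth limits Matn1 and Cilp2, and 3 libraries a group limit every call.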
